A study of Mus musculus with 48 samples.

Results

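The neurexin, neuroligin and LRRTM genes encode the core partners of a trans-synaptic adhesion system, and 9 of them were followed here through hippocampal RNA and 4 histone marks. They were taken by symbol from the Ensembl gene IDs of the RNA count tables. The 9 are 9 of the 48869 IDs listed in the tables of either RNA material, and all 9 passed the filter on low counts in both materials. They comprise 2 neurexin genes (Nrxn2, Nrxn3), 3 neuroligin genes (Nlgn1, Nlgn2, Nlgn3) and 4 LRRTM genes (Lrrtm1, Lrrtm2, Lrrtm3, Lrrtm4).

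Neurexins sit mainly on the presynaptic membrane and bind partners across the synaptic cleft. Neuroligins and LRRTM proteins (leucine-rich repeat transmembrane neuronal proteins) sit on the postsynaptic membrane and are among the best known of those partners. Together they help to shape and stabilise synapses: LRRTM1, LRRTM2 and NLGN1 are known for excitatory synapses, NLGN2 for inhibitory synapses and NLGN3 for both. In the hippocampus LRRTM1 and LRRTM2 are known for holding AMPA-type glutamate receptors at synapses, and LRRTM4 for excitatory synapses of dentate granule cells, where it also binds heparan sulfate proteoglycans.

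The samples came from the hippocampal CA region of C57BL/6J mice aged 4 to 6 months, labelled either Setd1b cKO (conditional knockout) or Control. SETD1B is a histone methyltransferase that places methyl groups on lysine 4 of histone H3 (H3K4), and it works in a complex whose CXXC1 subunit binds unmethylated CG dinucleotides. RNA was profiled in neurons (3 libraries labelled cKO, 3 labelled Control) and in whole CA tissue (6 and 6). H3K4me3, H3K4me1, H3K27ac and H3K9ac were profiled by ChIP-seq in sorted neuronal nuclei, in 4 and 4 libraries for the 2 methylation marks, 4 and 3 for H3K27ac, and 3 and 4 for H3K9ac. The labels name neither the Cre driver, the deleted exon nor any allele of the Control mice, and they do not say whether a library pools animals. If replicates do not come from separate animals, the p-values measure only the spread between these samples.

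Reads counted to genes numbered 55.7 to 69.1 M per neuron RNA library and 14.9 to 20.1 M per whole CA library. Setd1b counts did not mark the libraries labelled cKO by a lower level. They averaged 64.9 ± 6.38 CPM (counts per 1 M counted reads) against 54.2 ± 9.74 in neurons (mean ± SD, n = 3 each), and 59.6 ± 6.27 against 39.3 ± 8.56 in whole CA (n = 6 each). The whole CA difference passed the test in the opposite direction to the label (log2 fold change 0.59, adjusted p = 0.00415). A gene-level count includes exons outside a deletion and so does not check the deletion itself, and samples are therefore named by their labels. The 4 neuronal markers summed to 2439 CPM or more in every neuron library, but this sum was lower than in whole CA. In libraries labelled Control it was 2439 to 2934 CPM in neuron RNA and 5365 to 5877 CPM in whole CA. Glial and endothelial markers were low in neuron RNA, with the 5 astrocyte markers at 25.3 to 31.8 CPM in libraries labelled Control, against 1443 to 1694 CPM in whole CA. The 4 oligodendrocyte markers summed to 114 to 132 CPM in those neuron libraries, against 3764 to 5443 CPM in whole CA.

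All levels below are CPM of total counted reads. No transcript lengths were used, so levels are compared within a gene and not between genes. A log2 fold change compares the cKO label with the Control label and comes from edgeR's quasi-likelihood fit over every gene that passed the filter. Called means an adjusted p (Benjamini-Hochberg, over all of those genes) under 0.05. A lack of overlap between the genotypes in RNA describes single genes, and its share over all genes was not taken.

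**Figure D1:**
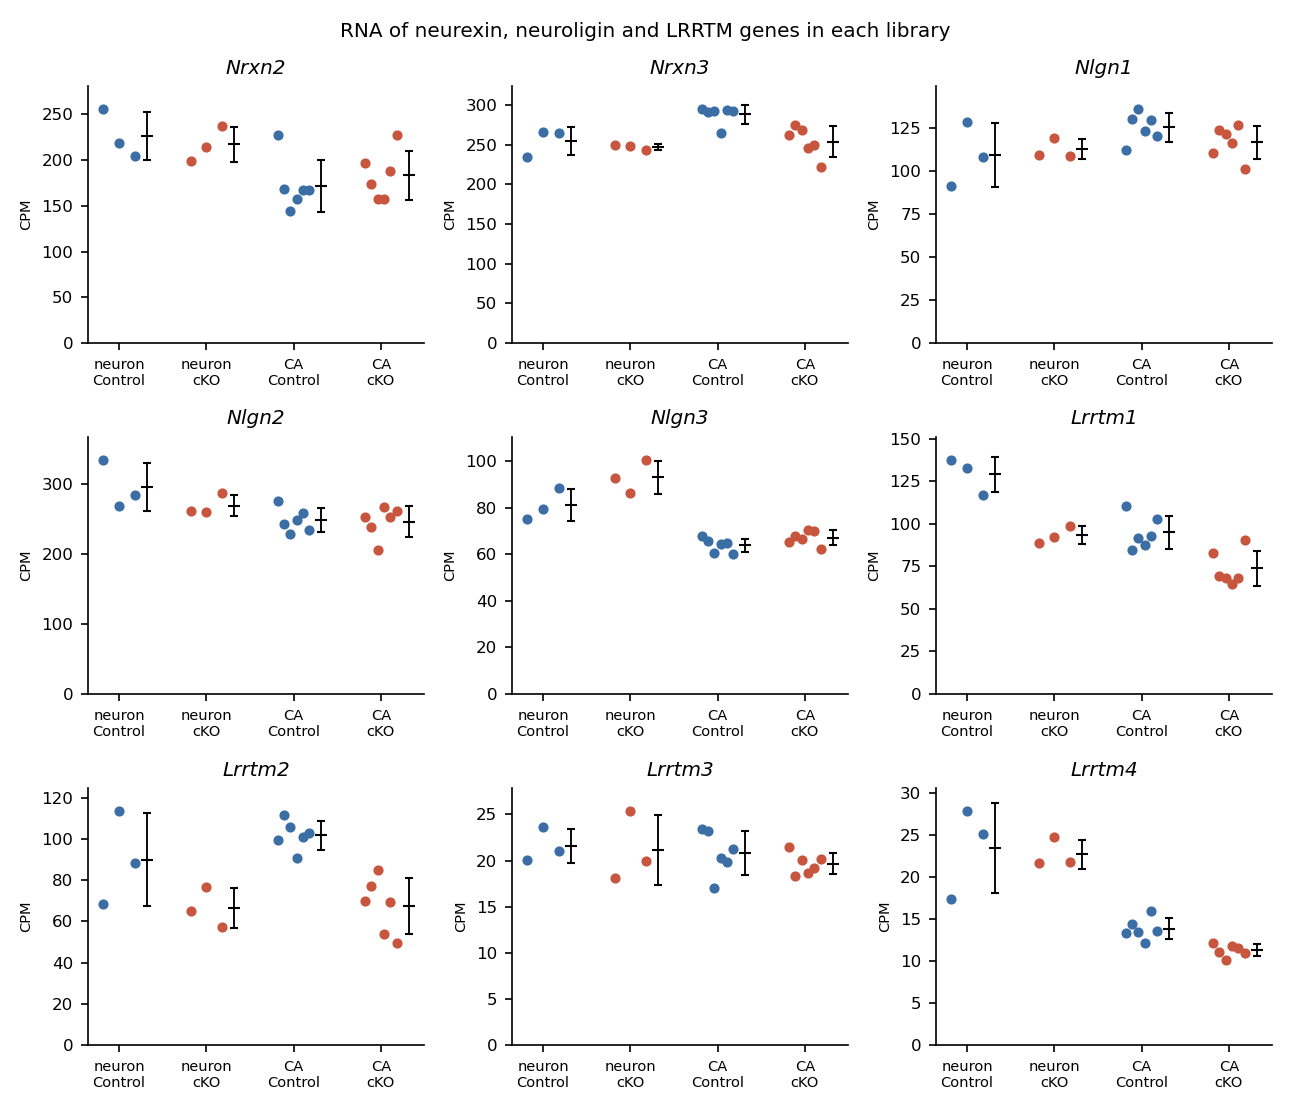
RNA level of each gene in CPM (linear axis from 0) in every library, by material (neuron RNA or whole CA RNA) and genotype label; each point is 1 library, and the bar beside the points is the mean ± SD (n = 3 for neuron groups, n = 6 for CA groups). Lrrtm1 in neurons and Lrrtm2 and Lrrtm4 in whole CA show no overlap, with the cKO label lower, and Nrxn2 and Nlgn2 overlap in both materials. No share of all genes free of overlap stands beside this.

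The LRRTM genes held all of the calls. In neuron RNA 1 of the 9 genes, Lrrtm1, was called lower and none higher, where 2% of 19622 genes tested were called lower and 0.744% higher. In whole CA RNA 3 of the 9, Lrrtm1, Lrrtm2 and Lrrtm4, were called lower and none higher, where 2.79% of 15362 genes were called lower and 1.38% higher. The median log2 fold change of the 9 genes was -0.06 in neurons and -0.12 in whole CA, beside 0.02 and -0.0027 over all genes tested. In these bulk libraries fewer cells of a type and less RNA per cell cannot be told apart.

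Lrrtm1 (ENSMUSG00000060780; GRCm38.p6 chr6:77229210-77259915) lies within the span of Ctnna2, the alpha-N-catenin gene. In neuron RNA it stood at 137, 133 and 117 CPM in libraries labelled Control and at 88.8, 92.4 and 98.8 CPM in those labelled cKO. The groups did not overlap, and the level fell by 28.3% (log2 fold change -0.48, SE 0.09, adjusted p = 0.0229). In whole CA the libraries labelled Control ranged from 84.7 to 110.6 CPM with a median of 92.2, and those labelled cKO from 64.6 to 90.6 CPM with a median of 68.8. The upper cKO values reached into the lower Control values, and the gene was called lower (log2 fold change -0.38, SE 0.09, adjusted p = 0.0156). The neuron call did not hold without cKO replicate 1 (adjusted p = 0.121), without cKO replicate 2 (0.104) or without Control replicate 2 (0.0802). The whole CA libraries carry 1 of 2 sequencing lane numbers, and within lane 1 alone and lane 2 alone, 3 against 3, the log2 fold changes were -0.36 and -0.39 and neither was called.

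Lrrtm2 (ENSMUSG00000071862; chr18:35209003-35215024) lies within the span of Ctnna1, the alpha-E-catenin gene. In whole CA it ranged from 90.6 to 111.7 CPM with a median of 102 in libraries labelled Control, and from 49.7 to 85.0 CPM with a median of 69.8 in those labelled cKO. The genotypes did not overlap, and the level fell by 34.2% (log2 fold change -0.60, SE 0.11, adjusted p = 0.00356). It was the only gene of the 9 called in whole CA within each lane, at -0.43 in lane 1 (adjusted p = 0.0312) and -0.81 in lane 2 (0.00329). In neuron RNA it stood at 68.5, 113.5 and 88.2 CPM in libraries labelled Control and 65.2, 76.9 and 57.6 CPM in those labelled cKO. Control replicate 1 lay among the cKO values, and the neuron difference of -0.45 (SE 0.17) was not called (adjusted p = 0.232). Without Control replicate 1 it was called, at -0.62 (adjusted p = 0.0458).

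Lrrtm4 (ENSMUSG00000052581; chr6:80018858-80810162) was the third LRRTM gene called in whole CA. It ranged there from 12.2 to 16 CPM with a median of 13.6 in libraries labelled Control, and from 10.1 to 12.2 CPM with a median of 11.3 in those labelled cKO. The groups met without overlapping, at 12.21 and 12.20 CPM, and the level fell by 19.6% (log2 fold change -0.31, SE 0.08, adjusted p = 0.0364). In neuron RNA it stood at 17.5, 27.8 and 25.1 CPM in libraries labelled Control and 21.7, 24.7 and 21.8 CPM in those labelled cKO, a difference of -0.06 (SE 0.16). The whole CA call was lost in 9 of the 12 fits that left out 1 library, each of cKO replicates 2 to 6 and Control replicates 2, 3, 5 and 6 (largest adjusted p 0.12), and within each lane (-0.29 and -0.33).

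Lrrtm3 (ENSMUSG00000042846; chr10:63928497-64090255), inside the span of the catenin gene Ctnna3, was not called in either material. In neuron RNA it stood at 20.1, 23.6 and 21 CPM in libraries labelled Control and at 18.1, 25.3 and 19.95 CPM in those labelled cKO. In whole CA it ranged from 17 to 23.4 CPM and from 18.3 to 21.4 CPM. The values of the genotypes overlapped throughout, and the log2 fold changes were -0.05 (SE 0.13) and -0.10 (SE 0.08).

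The library kit does not mark strand. Reads of a catenin gene that fall within Lrrtm1, Lrrtm2 or Lrrtm3 therefore cannot be told apart by strand from reads of these genes. The catenin genes also have counts of their own. Ctnna2, around Lrrtm1, had a log2 fold change of 0.26 in neurons (adjusted p = 0.174) and 0.07 in whole CA, the opposite sign to Lrrtm1. Ctnna1, around Lrrtm2, had -0.34 in neurons (adjusted p = 0.104) and -0.08 in whole CA. In neuron RNA neither gene overlapped between the genotypes, with the cKO label higher for Ctnna2 and lower for Ctnna1. Ctnna3, around Lrrtm3, averaged 0.582 CPM in neurons and 1.85 CPM in whole CA in libraries labelled Control. The part of the catenin genes in the LRRTM values was not tested.

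The neurexin genes held no call at the threshold. Nrxn3 (ENSMUSG00000066392; chr12:88722701-90334935), one of the longest genes of the mouse genome, ranged in whole CA from 264 to 294 CPM with a median of 292 in libraries labelled Control. In those labelled cKO it ranged from 221 to 274 CPM with a median of 255. All but Control replicate 4 of the Control libraries were above every library labelled cKO, and the difference of -0.20 (SE 0.06) was just outside the threshold (adjusted p = 0.0947). It was called with lane as a covariate (adjusted p = 0.0436) and without cKO replicate 3 (0.0485). It was not called in any other fit that left out a library (largest adjusted p 0.189). Neither lane alone gave a call. The difference was -0.11 in replicates 1 to 3 (adjusted p = 0.576) and -0.29 in replicates 4 to 6 (0.145). In neuron RNA Nrxn3 stood at 234, 265 and 264 CPM in libraries labelled Control and 249.6, 249 and 243 CPM in those labelled cKO, a difference of -0.06 (SE 0.09).

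Nrxn2 (ENSMUSG00000033768; chr19:6418756-6533217) stood in neuron RNA at 255.5, 219 and 205 CPM in libraries labelled Control and at 199.6, 215 and 237 CPM in those labelled cKO. In whole CA it ranged from 145 to 227 CPM with a median of 167 in libraries labelled Control, and from 157 to 227 CPM with a median of 181 in those labelled cKO. The genotypes overlapped in both materials, and the log2 fold changes of -0.07 (SE 0.11) and 0.08 (SE 0.10) differed in sign.

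None of the 3 neuroligin genes was called in either material. Nlgn1 (ENSMUSG00000063887; chr3:25421808-26332866), of excitatory synapses, stood in neuron RNA at 91.5, 128 and 108 CPM in libraries labelled Control and at 109.6, 119.6 and 109 CPM in those labelled cKO. In whole CA it ranged from 113 to 136 CPM and from 101 to 127 CPM. The genotypes overlapped, with log2 fold changes of 0.03 (SE 0.12) and -0.12 (SE 0.07).

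Nlgn2 (ENSMUSG00000051790; chr11:69823123-69837784), of inhibitory synapses, stood in neuron RNA at 334, 269.5 and 285 CPM in libraries labelled Control and at 262, 260.2 and 287 CPM in those labelled cKO. In whole CA it ranged from 229 to 277 CPM and from 206 to 267 CPM. Its log2 fold changes were -0.15 (SE 0.10) and -0.03 (SE 0.06), and the genotypes overlapped in both materials.

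Nlgn3 (ENSMUSG00000031302; chrX:101299179-101321350) stood in neuron RNA at 75.0, 79.4 and 88.6 CPM in libraries labelled Control and at 92.7, 86.3 and 100.3 CPM in those labelled cKO. In whole CA it ranged from 60.04 to 67.7 CPM and from 62.3 to 70.5 CPM. Its log2 fold changes were above 0 in both materials, at 0.19 (SE 0.10, adjusted p = 0.351) and 0.06 (SE 0.05, adjusted p = 0.682), and neither was called.

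Libraries of 1 group also differed from each other in the balance of these genes. In neuron RNA, Control replicate 1 held the highest Nrxn2, Nlgn2 and Lrrtm1 and the lowest Nrxn3, Nlgn1, Nlgn3, Lrrtm2, Lrrtm3 and Lrrtm4 of the 3 libraries labelled Control. In whole CA, Control replicate 1 held the highest Nrxn2, Nlgn2, Lrrtm1, Nrxn3, Nlgn3 and Lrrtm3 and the lowest Nlgn1 of the 6, so that Nrxn3, Nlgn3 and Lrrtm3 lay at opposite ends in the 2 materials.

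**Figure D2:**
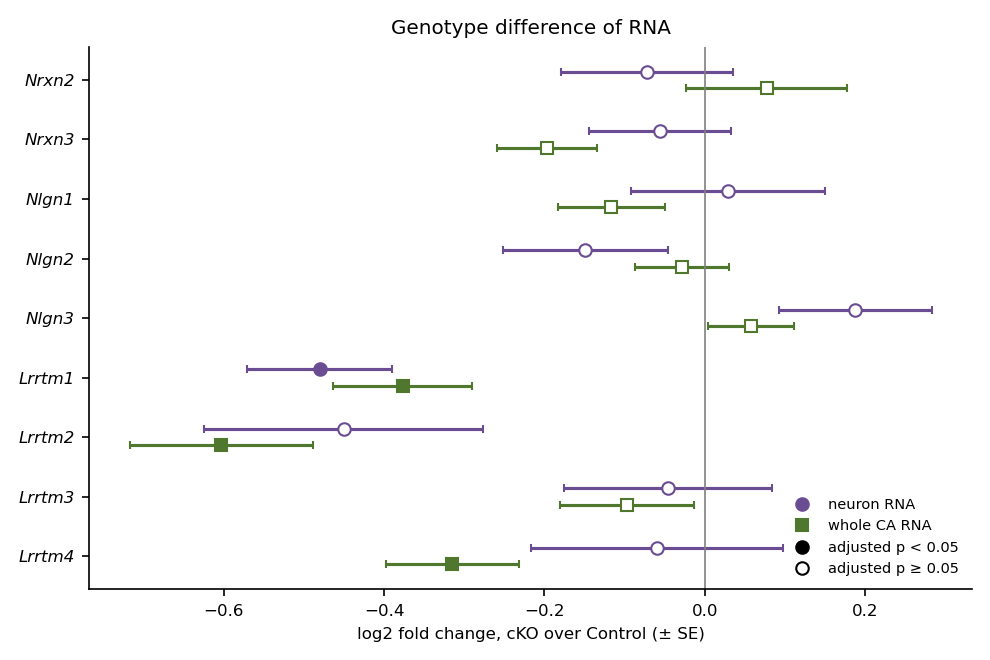
Log2 fold change of each gene, cKO label over Control label, with its standard error, in neuron RNA (circles) and whole CA RNA (squares); filled symbols passed an adjusted p of 0.05. The filled symbols are Lrrtm1 in both materials (-0.48 and -0.38) and Lrrtm2 (-0.60) and Lrrtm4 (-0.31) in whole CA.

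A call in one material and not in the other does not show that the genotype difference differs between them, and that difference was tested as an interaction over all 18 RNA libraries. None of the 9 genes was called (0 also had an unadjusted p under 0.05), where edgeR called 0.131% of 17523 genes lower and 0.0285% higher. The interaction of Lrrtm4, called in whole CA alone, was 0.26 on the log2 scale (SE 0.16, adjusted p = 0.657). That of Lrrtm2 was 0.16 (SE 0.21, adjusted p = 0.826) and that of Lrrtm1 -0.10 (SE 0.14, adjusted p = 0.843).

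The levels also differed between the materials in libraries labelled Control. Lrrtm4 was 1.51 times as high in neuron RNA as in whole CA (log2 fold change 0.59, SE 0.13, adjusted p = 0.000368), and Lrrtm1 (0.28) and Nlgn3 (0.18) were also called higher. Nlgn1 (-0.36), Lrrtm2 (-0.34) and Nrxn3 (-0.34) were called lower in neuron RNA, while Nrxn2 (0.23), Nlgn2 (0.09) and Lrrtm3 (-0.11) were not called. Such calls were common, with 40.1% of 16859 genes called lower and 43.6% higher. The share of reads from mitochondrial genes was 3.41 to 7.05% in whole CA libraries but 0.00814 to 0.0144% in the neuron libraries. Material, preparation and sequencing run cannot be told apart here, and the part of the RNA fraction was not tested. With library sizes alone in place of TMM factors the median of all genes moved up by 0.16, Lrrtm3 turned from -0.11 to 0.05, Nrxn2 (0.40) and Nlgn2 (0.26) were called, and Nlgn1 (-0.19) and Lrrtm2 (-0.18) were not. The Lrrtm2 call was also lost without neuron Control replicate 1, and the Nlgn3 call without neuron Control replicate 3 or whole CA Control replicate 3 or 6. Nrxn2 was called without neuron Control replicate 3 or whole CA Control replicate 1.

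The order of the group means ran, from high to low, neuron Control, whole CA Control, neuron cKO, whole CA cKO for Lrrtm1, where the ranges of the middle groups overlapped. For Lrrtm2 whole CA Control was highest, at 102 ± 7.03 CPM, and neuron cKO and whole CA cKO were lowest and close, at 66.6 ± 9.75 and 67.5 ± 13.6 CPM. For Lrrtm4 both neuron groups (23.5 ± 5.38 and 22.7 ± 1.74 CPM) stood above both whole CA groups (13.9 ± 1.26 and 11.3 ± 0.719 CPM), with no library out of that order. For Nlgn3 too, every neuron library was above every whole CA library. The remaining genes had neighbouring groups whose ranges overlapped.

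Other genes of the trans-synaptic system were taken as 5 lists. Of the 25 neurexin ligands and modulators tested in neuron RNA, 1 was called lower and 1 higher, near the shares of 2% and 0.744% over all genes. C1ql2, a secreted complement-related ligand of neurexin 3, fell from 45.01 ± 6.89 to 26.9 ± 5.34 CPM (log2 fold change -0.76, adjusted p = 0.0299). Mdga2, which binds neuroligins and hinders their binding to neurexins, rose from 43.8 ± 2.66 to 58.4 ± 1.45 CPM (0.40, adjusted p = 0.033). In whole CA neither was called, with C1ql2 at -0.69 and Mdga2 at -0.01. There 1 of 23 was called lower, Mdga1, the relative of Mdga2 (-0.57, adjusted p = 0.000226), and 1 higher, the latrophilin gene Adgrl2 (0.25, adjusted p = 0.0356), beside 2.79% and 1.38% over all genes. In neuron RNA Mdga1 (-0.60) and Adgrl2 (-0.07) were not called.

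Of 34 other trans-synaptic organizers, 1 was called lower and none higher in neuron RNA (2% and 0.744% over all genes), and 5 lower and 1 higher in whole CA (2.79% and 1.38%). Lrrc4c, encoding the netrin-G ligand NGL-1, was called in both, at -0.57 in neurons (adjusted p = 0.0291) and -0.51 in whole CA (adjusted p = 0.000127). The others called lower in whole CA were Flrt3 (-0.55), Slitrk3 (-0.29), Nectin3 (-0.39) and Tenm2 (-0.26), and Ntng2, encoding netrin-G2, was called higher (0.47). In neuron RNA these genes stood, in the same order, at -0.45, -0.25, -0.03, -0.26 and 0.17, without a call. None of the 17 intracellular partners such as Cask and Dlg4, the 8 regulators of neurexin splicing or the 5 sheddases was called in either material, with 0 and 4, 1 and 1, and 0 and 0 at an unadjusted p under 0.05 in neurons and whole CA. No gene of the 5 lists was called in the interaction. The median log2 fold changes of the first 2 lists were -0.07 and -0.10 in neurons and -0.01 and -0.08 in whole CA.

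Some markers of cell types moved beside these values. In neuron RNA 1 of 4 excitatory markers (Neurod6), 1 of 3 CA1 markers (Wfs1) and 1 of 3 dentate granule markers (Dsp) were called lower, and no marker was called higher, beside 2% of all genes lower. The 3 CA1 markers summed there to 403 to 488 CPM in libraries labelled Control and 317 to 386 CPM in those labelled cKO, and in whole CA to 391 to 462 against 385 to 441 CPM. The summed CPM of the 3 CA3 markers did not overlap between the genotypes in either material. The sums were 172 to 190.3 against 139 to 158 CPM in neurons, where none of the 3 was called, and 270.1 to 312 against 212 to 238 CPM in whole CA. In whole CA 1 of 4 excitatory (Neurod6), 1 of 3 CA1 (Wfs1) and 2 of 3 CA3 markers (Cpne4, Grik4) were called lower. So were 2 of 3 dentate granule (Calb1, Dsp), 1 of 5 astrocyte (Aqp4) and 1 of 4 microglial markers (Cx3cr1), beside 2.79% of all genes. None of the 4 neuronal, 3 inhibitory, 4 oligodendrocyte, 3 oligodendrocyte precursor and 3 endothelial markers was called there, and no marker was called higher. The 3 dentate granule markers summed in whole CA to 146 to 189 CPM in libraries labelled Control and 111 to 149 CPM in those labelled cKO. In neuron RNA they summed to 183 to 204 against 149.9 to 178 CPM. Besides the CA3 sums, the CA1 and dentate granule sums in neuron RNA did not overlap between the genotypes. Nor did the microglial sums in whole CA, at 242 to 297 against 216 to 238 CPM. How often such sums are free of overlap over all genes was not taken. The part of cell makeup in the LRRTM differences was not tested.

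Over the 12 whole CA libraries, the likeness of each gene to 13220 others was taken as Pearson's r of log2 CPM. The gene most like Nrxn3 was Lrrtm2 (r = 0.952), its postsynaptic partner. Of the 36 pairs among the 9 genes it was the only one with an adjusted permutation p under 0.05 by both measures (r = 0.952, adjusted p = 0.00072; Spearman's rho = 0.846, adjusted p = 0.036; 100000 permutations). This permutation crosses the genotype labels, and both genes were lower with the cKO label, Nrxn3 without a call. It tests against no correlation, and no share over all gene pairs was taken. Best matches of the 9 genes ran from 0.885 to 0.972, so that 0.952 was not unusual among them. With genotype means taken out and libraries permuted within genotype, r was 0.921 (adjusted permutation p = 0.00936), and Nrxn2 with Lrrtm1 was the other pair of the 36 under 0.05 (r = 0.796, adjusted permutation p = 0.041). Within genotypes the Nrxn3 and Lrrtm2 r was 0.951 in libraries labelled cKO and 0.788 in those labelled Control, and within lanes 0.943 and 0.962. Without the 2 libraries farthest from the Nrxn3 median r was 0.877. Lrrtm1 was most like Islr2 (r = 0.945) and Lrrtm4 most like the sialyltransferase gene St8sia6 (r = 0.937), both called lower in whole CA (-0.68 and -0.90), so that their r holds the genotype difference too. Lrrtm2 was most like Cpne8 (0.967), Nrxn2 like Lpcat4 (0.972), Nlgn1 like Tmod2 (0.966), Nlgn2 like Ndufaf8 (0.952), Nlgn3 like Usp29 (0.924) and Lrrtm3 like Rabep2 (0.885).

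H3K4me3, the mark of active start sites, was measured as the length of the deposited peaks in base pairs (bp). Peaks of all 8 libraries were merged into 44667 regions with a peak in at least 3 libraries, and a region was counted to a gene within 1000 bp of the gene's span where its mean covered length was at least 1000 bp. This gave 13 regions: 3 for Nrxn3, 2 each for Nrxn2 and Nlgn1, and 1 for each of the others. The widest region left out had a mean of 830.0 bp and lay at Nrxn2, and the smallest kept had a mean of 2279 bp. The RefSeq start-site table of build GRCm38.p6, the files' own mm10 build, held start sites for 6 of the 9 genes.

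The start sites are shown by the 250 bases before them, from RefSeq, with CG dinucleotides in capitals because the SETD1B complex reads this dinucleotide. Lrrtm1, Lrrtm4 and Nrxn3 are shown as genes whose H3K4me3 was called shorter, and Lrrtm3 and Nlgn2 as genes whose H3K4me3 was not in the fit used throughout. The stretches are chr6:77242227-77242476 (plus strand) for Lrrtm1, chr6:80018627-80018876 (plus) for Lrrtm4, chr12:88953140-88953389 (plus) for an internal start of Nrxn3, chr10:64090256-64090505 (minus) for Lrrtm3 and chr11:69837785-69838034 (minus) for Nlgn2.
Lrrtm1: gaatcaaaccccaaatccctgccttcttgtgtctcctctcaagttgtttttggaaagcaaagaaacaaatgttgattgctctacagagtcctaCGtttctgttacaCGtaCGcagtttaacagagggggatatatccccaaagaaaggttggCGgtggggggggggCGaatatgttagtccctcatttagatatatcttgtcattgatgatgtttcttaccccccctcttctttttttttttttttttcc
Lrrtm4: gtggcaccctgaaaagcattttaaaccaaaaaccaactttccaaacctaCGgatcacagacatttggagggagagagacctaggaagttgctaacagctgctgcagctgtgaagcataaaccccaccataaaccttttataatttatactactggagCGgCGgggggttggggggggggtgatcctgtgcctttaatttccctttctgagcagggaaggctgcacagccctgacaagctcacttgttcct
Nrxn3: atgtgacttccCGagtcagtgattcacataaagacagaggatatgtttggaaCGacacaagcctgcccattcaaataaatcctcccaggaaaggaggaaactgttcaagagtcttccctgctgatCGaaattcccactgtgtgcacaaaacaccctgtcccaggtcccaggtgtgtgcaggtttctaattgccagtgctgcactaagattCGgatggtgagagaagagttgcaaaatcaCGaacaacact
Lrrtm3: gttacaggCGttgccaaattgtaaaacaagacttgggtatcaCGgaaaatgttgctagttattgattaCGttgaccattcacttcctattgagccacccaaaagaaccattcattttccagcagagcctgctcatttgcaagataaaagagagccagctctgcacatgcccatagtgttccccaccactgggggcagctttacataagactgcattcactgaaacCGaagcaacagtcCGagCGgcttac
Nlgn2: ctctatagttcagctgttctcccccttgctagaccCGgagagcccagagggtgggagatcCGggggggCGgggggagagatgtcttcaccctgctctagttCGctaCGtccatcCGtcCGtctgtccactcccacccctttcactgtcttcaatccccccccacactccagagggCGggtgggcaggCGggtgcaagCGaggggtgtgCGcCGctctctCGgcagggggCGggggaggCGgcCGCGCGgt
The motif CG, which reads the same on both strands, occurred 5 times before Lrrtm1, 3 times before the Lrrtm4 start shown, 5 times before this Nrxn3 start, 6 times before Lrrtm3 and 18 times before Nlgn2. Among 32851 start sites, 92.1% had at least 1 CG in these 250 bases, with a median of 6. The table also holds a start of Lrrtm4 further in the same region with 8 CG, starts of Nlgn1 with 9 (region 2) and 5 (region 1), and further starts of Nrxn3 with 12 (region 3) and 2 (in no region). Starts in regions called shorter thus had 3 to 9 CG and those in regions not called 6 to 18, which overlap. As many or fewer were held by 37.8% of start sites for the Lrrtm4 start shown, 49.6% for that of Lrrtm1, 53.7% for that of Lrrtm3 and 80.3% for that of Nlgn2.

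All 13 regions had a shorter mean covered length in libraries labelled cKO, and 7 were called shorter by limma over all 44667 regions (log2 of covered bp plus 100), where 9.36% of all regions were called shorter. In 10 of the 13 the genotypes did not overlap, with the cKO label shorter. Of the 15408 regions with a mean of at least 1000 bp, 19.5% were called shorter, 0.0974% longer, and 34.5% had all cKO libraries below all Control libraries. Among the 5897 regions as wide as these 13, with means between 2279 and 8183 bp, 39.1% were called shorter and 63.2% were free of overlap in this direction, so that the counts of 7 and 10 lie near the background of wide regions. The median log2 difference was -0.43 over the 13 regions and -0.22 over the 5897.

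**Figure D3:**
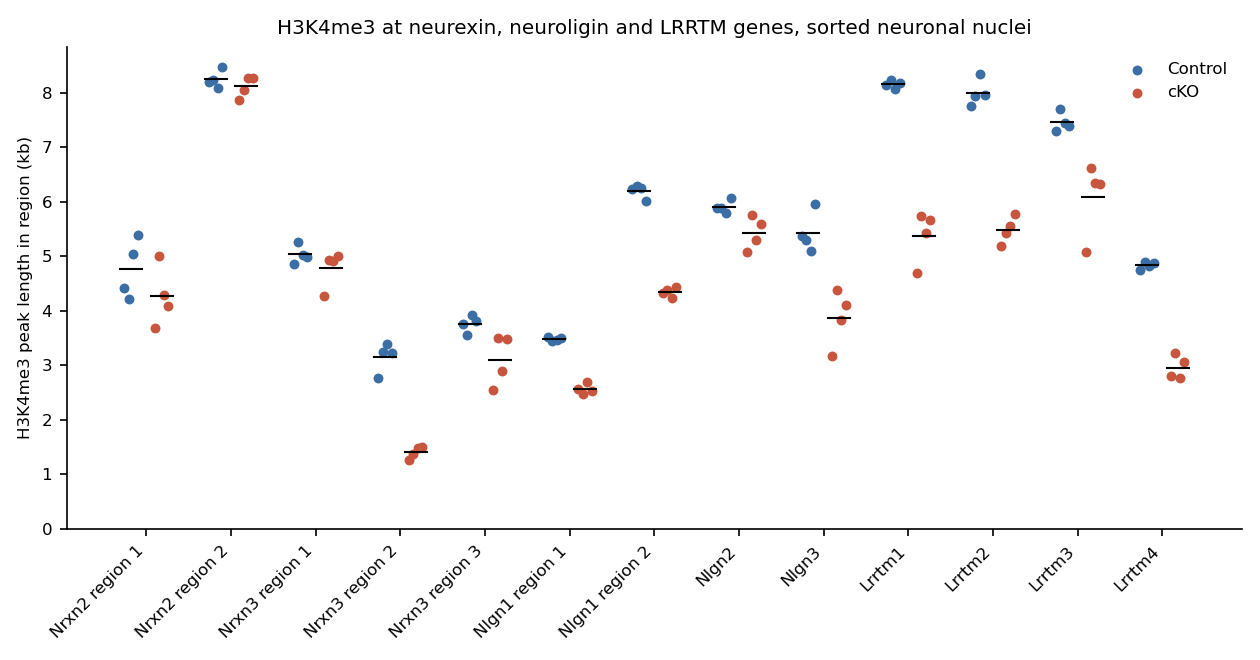
Length covered by H3K4me3 peaks (kb, axis from 0) in each of the 13 regions, for 4 libraries labelled Control and 4 labelled cKO; points are libraries and black lines group means. Points of the genotypes are apart at all 4 LRRTM genes, the neuroligin regions and Nrxn3 regions 2 and 3, and mixed at both Nrxn2 regions and Nrxn3 region 1.

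The Lrrtm1 region (chr6:77242170-77250480) was covered by 8150, 8238, 8067 and 8178 bp in libraries labelled Control and by 4691, 5737, 5422 and 5668 bp in those labelled cKO. The mean fell by 34.1% (log2 difference -0.60, SE 0.08, adjusted p = 0.00236). The Lrrtm2 region (chr18:35208069-35216560), which spans the whole gene, was covered by 7760, 7935, 8348 and 7965 bp against 5194, 5426, 5552 and 5779 bp. Its mean fell by 31.4% (-0.54, SE 0.06, adjusted p = 0.00104), and the highest fold enrichment the authors' peak caller gave there was 42.5 ± 3.95 in libraries labelled Control and 26 ± 3.81 in those labelled cKO (SD, n = 4 each). Enrichment was not tested. In the other regions called shorter its means, Control then cKO, were 57.6 and 55.1 at Lrrtm1, 43.0 and 42.0 at Lrrtm4, and 37.8 and 39.6 at Nlgn3. They were 58.3 and 51.6 at Nlgn1 region 1, 60.3 and 62.3 at Nlgn1 region 2, and 29.9 and 22.6 at Nrxn3 region 2.

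The Lrrtm4 region (chr6:80018491-80023410) was covered by 4750, 4897, 4829 and 4884 bp against 2799, 3223, 2760 and 3051 bp. The mean fell by 38.9% (-0.69, SE 0.07, adjusted p = 0.000585), the largest fall of the LRRTM genes. Just downstream, a narrower region at chr6:80023485-80024992, named after its values were seen, was covered by 1167 to 1459 bp in the libraries labelled Control and listed at 0 in all 4 labelled cKO. The Lrrtm3 region (chr10:64083186-64090909) was covered by 7303 to 7702 bp against 5070 to 6620 bp; the libraries did not overlap, but the difference of -0.30 (SE 0.09) was not called (adjusted p = 0.0939), while with an offset of 1000 bp it was (-0.26, adjusted p = 0.0460).

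Nrxn3 had regions of different behaviour. At its internal start in region 2 (chr12:88952732-88956173) H3K4me3 covered 2769, 3248, 3382 and 3227 bp in libraries labelled Control and 1258, 1366, 1484 and 1495 bp in those labelled cKO. The mean fell by 55.6%, the largest fall of the 13 regions (log2 difference -1.12, SE 0.09, adjusted p = 0.000243). At the 5′ end of the gene span, region 1 (chr12:88722278-88727821), 4860 to 5266 bp stood against 4268 to 5001 bp, which was not called (-0.08, SE 0.07). Region 3 (chr12:89811394-89815635), at a start far downstream, was covered by 3556 to 3924 bp against 2543 to 3508 bp, which was not called (-0.28, SE 0.11, adjusted p = 0.167). Its highest fold enrichment was 23.6 ± 4.32 in libraries labelled Control and 40.0 ± 8.98 in those labelled cKO. The enrichment overlapped between the genotypes, since cKO replicate 1 (29.3) was just below Control replicate 1 (29.4), and it was not tested.

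At Nlgn1 both regions were called shorter. Region 2 (chr3:26327798-26334142), at the outer start, was covered by 6236, 6289, 6246 and 6009 bp against 4322, 4386, 4225 and 4443 bp (-0.50, SE 0.05, adjusted p = 0.000686). Region 1 (chr3:26150642-26154240), at an inner start, was covered by 3437 to 3521 bp against 2477 to 2689 bp (-0.43, SE 0.05, adjusted p = 0.00176). The Nlgn3 region (chrX:101298463-101304575) was covered by 5376, 5300, 5095 and 5954 bp against 3166, 4389, 3832 and 4100 bp. It was called shorter (-0.49, SE 0.11, adjusted p = 0.0331), but the call was lost when any 1 of cKO replicates 3 and 4 and Control replicates 1 to 4 was left out (largest adjusted p 0.0871), and in replicates 1 to 3 alone, which share a lane (0.144).

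The Nlgn2 region (chr11:69833526-69839638) was covered by 5785 to 6068 bp against 5085 to 5750 bp, without overlap, and was not called (-0.12, SE 0.06, adjusted p = 0.268). At Nrxn2, region 1 (chr19:6415757-6421595) was covered by 4221 to 5390 bp against 3689 to 5000 bp, and region 2 (chr19:6496393-6504870) by 8094 to 8478 bp against 7867 to 8271 bp. The libraries of the genotypes overlapped in both Nrxn2 regions, and the log2 differences were -0.16 (SE 0.12) and -0.02 (SE 0.05).

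Where a start site lies in the region, most of the difference in length was downstream of it, but most of the Control length lay there too. At Lrrtm1 and Lrrtm4 so little lay upstream that the comparison of sides could show little there. At Lrrtm1 the mean covered length was 7859.5 bp downstream and 299 bp upstream of the start in libraries labelled Control, and 5112 and 267 bp in those labelled cKO. These lengths leave out a separate short upstream peak of the libraries labelled Control, which lies outside the region tested. At Lrrtm4 it was 4497 bp downstream and 343 bp upstream against 2648 and 310.2 bp. At the outer Nlgn1 start 3992 bp downstream and 2203 bp upstream stood against 2144 and 2200.2 bp. The upstream lengths of Nlgn1 overlapped between the genotypes, at 2171 to 2234 and 2155 to 2222 bp. At the internal Nrxn3 start of region 2 both sides were shorter, with 2530.2 bp downstream and 626 bp upstream against 924 and 477 bp.

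**Figure D4:**
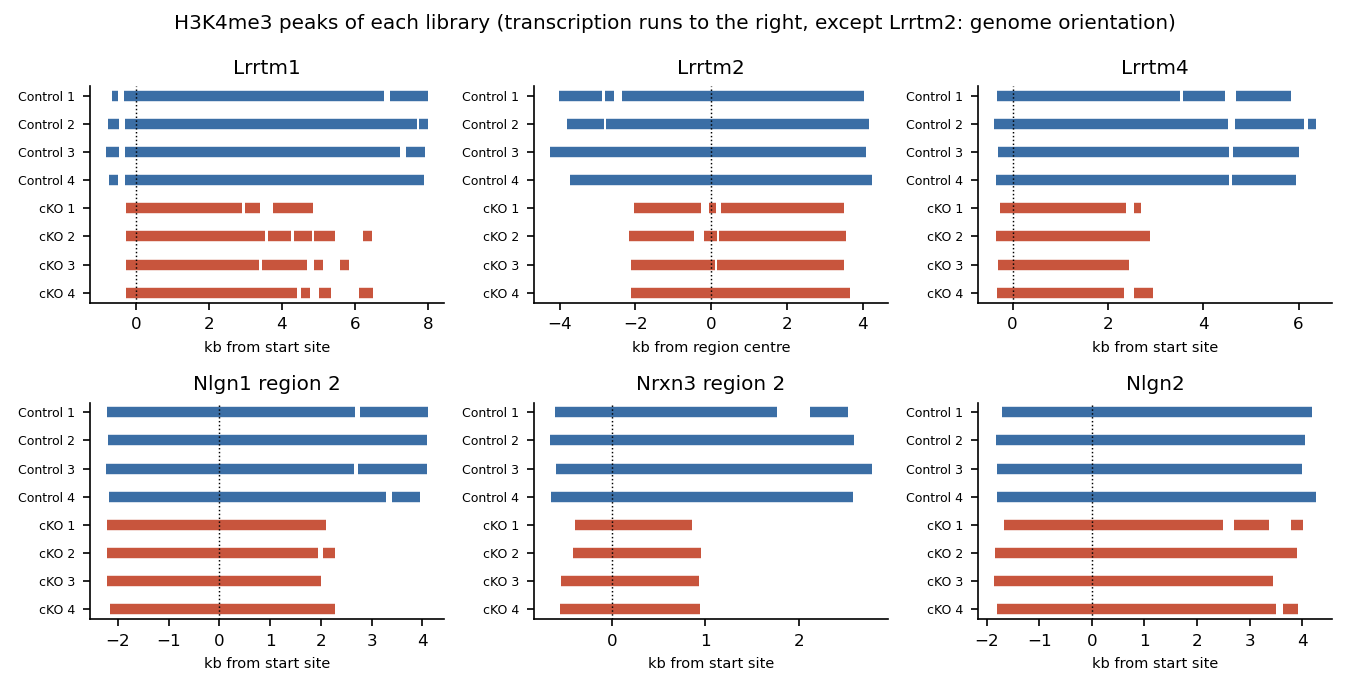
Extent of the H3K4me3 peaks of each library (bars) in kb from the start site, with transcription to the right, or from the region centre in genome orientation for Lrrtm2. Bars of libraries labelled cKO stop short of those labelled Control on the right at Lrrtm1, Lrrtm4, Nlgn1 region 2 and Nrxn3 region 2, at both ends at Lrrtm2, and nearly match at Nlgn2. A separate short peak upstream of Lrrtm1, outside the region tested, is seen in the 4 libraries labelled Control.

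H3K4me1, a mark of the flanks of active start sites and of enhancers, was called longer inside the same regions at 3 of the LRRTM genes. The Lrrtm1 region held 3284, 2181, 2394 and 2523 bp of H3K4me1 peaks in libraries labelled Control and 6620, 6619, 6858 and 6979 bp in those labelled cKO (log2 difference 1.37, SE 0.12, adjusted p = 0.00534). The Lrrtm2 region held 3536, 3132, 3294 and 3303 bp against 6441, 6797, 7179 and 6403 bp (0.99, SE 0.05, adjusted p = 0.000364). The Lrrtm3 region held 3827, 4694, 5055 and 4221 bp against 7724, 7507, 7041 and 7589 bp (0.74, SE 0.09, adjusted p = 0.0192). In each of these 3 regions the cKO label held the longer H3K4me1 in all libraries, without overlap. The same was seen, without a call, at Nlgn3 (0.38, SE 0.10) and Nlgn1 region 1 (0.66, SE 0.27). Nlgn1 region 2 (0.36, SE 0.24) and Nlgn2 (0.12, SE 0.06) overlapped between the genotypes and were not called. For H3K4me1 no share of all regions free of overlap was taken.

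In all, 4 of the 13 regions were called longer for H3K4me1 and none shorter. Of 15246 regions of at least 1000 bp, 1.38% were called longer and 0.302% shorter, and of the 5880 as wide as these 13, 2.72% longer and 0.459% shorter. The fourth was Nrxn2 region 2, where 4849 to 5726 bp stood against 6799 to 6947 bp (0.38, SE 0.06, adjusted p = 0.0474). Lrrtm1 and Lrrtm2 kept the call in every fit that left out 1 library. The Lrrtm3 call was lost without cKO replicate 1, 2 or 4 or Control replicate 2 or 4 (largest adjusted p 0.0818), and the Nrxn2 call in 7 of those 8 fits, all but that without Control replicate 4. Nrxn2 region 1 was covered whole (5839 bp) by H3K4me1 in all 8 libraries, so that no longer length could show there. The Lrrtm4 region held 2077 to 3524 bp against 2226 to 3693 bp, which overlapped and was not called (0.22, SE 0.23). At Nrxn3 region 2, where H3K4me3 fell most, H3K4me1 was also shorter without overlap, at 3442 bp (the whole region), 3442, 3442 and 3152 bp in libraries labelled Control against 2307, 2988, 2566 and 1828 bp, and was not called (-0.48, SE 0.14, adjusted p = 0.445). At Nrxn3 region 1, whose H3K4me3 overlapped between genotypes, H3K4me1 was 4445 to 5544 bp against 1846 to 2894 bp, and this difference was not called (-0.997, SE 0.16, adjusted p = 0.0629).

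For the acetylation marks calls were few. None of the 13 regions was called for H3K27ac by limma, with 2 (Nlgn2 and Nlgn3) at an unadjusted p under 0.05, where 0.565% of 14703 regions were called shorter and 0.102% longer. The differences at Lrrtm1, Lrrtm2, Lrrtm3 and Lrrtm4 were 0.14, 0.07, -0.04 and -0.15. For H3K9ac, Lrrtm1 alone was called shorter, from a mean of 7579 to 5806 bp (-0.38, SE 0.06, adjusted p = 0.0377), where 1.84% of 15285 regions were called shorter and 0.0523% longer, and 4.22% of the 5894 as wide as these 13 were called shorter. That call was lost in each of the 7 fits that left out 1 library (largest adjusted p 0.127). H3K9ac was shorter without overlap at 8 of the 13 regions, where 35% of the 5894 as wide were. Beside Lrrtm1 these were, none of them called, the other LRRTM genes Lrrtm2 (-0.35), Lrrtm3 (-0.41) and Lrrtm4 (-0.17), Nlgn2 (-0.06), Nlgn3 (-0.49), Nlgn1 region 1 (-0.20) and Nrxn3 region 2 (-0.38).

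**Figure D5:**
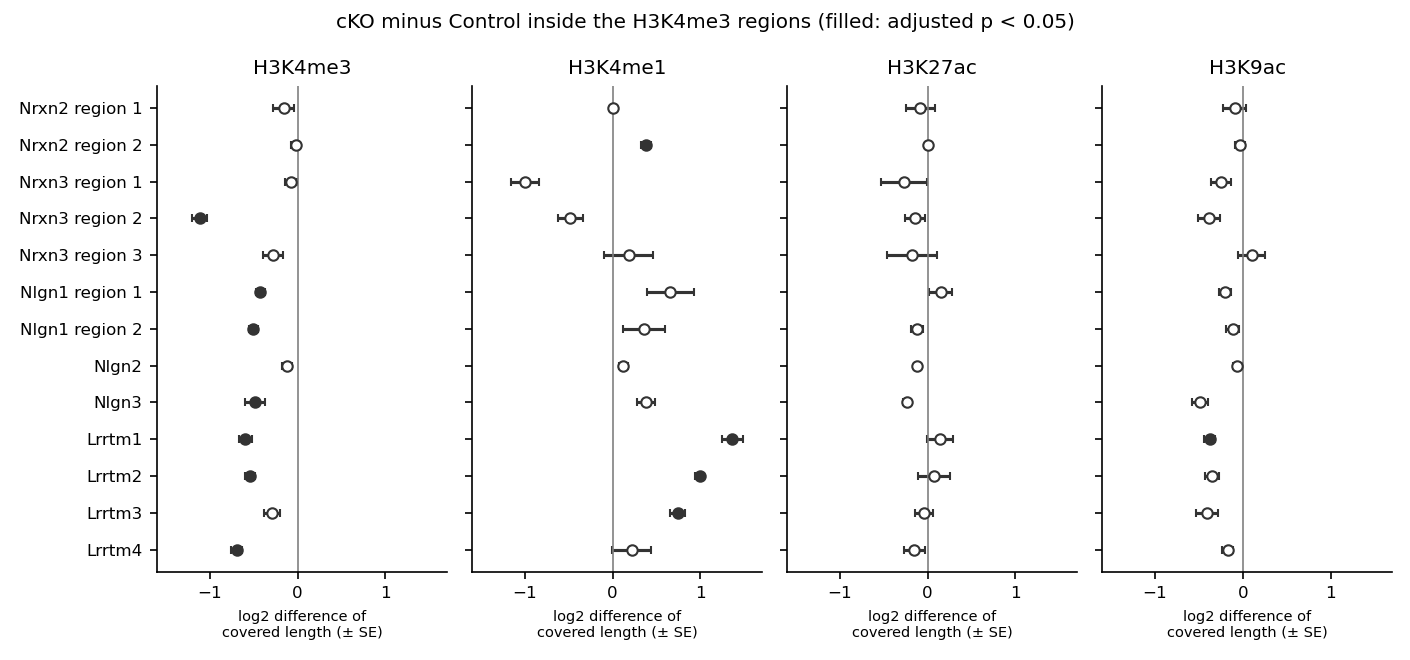
Log2 difference of covered length (cKO minus Control labels) with its standard error inside the 13 H3K4me3 regions, 1 panel for each mark; filled points passed an adjusted p of 0.05. At Lrrtm1 and Lrrtm2 the points lie left of 0 for H3K4me3 (-0.60 and -0.54) and right of 0 for H3K4me1 (1.37 and 0.99).

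A single input library per genotype served all ChIP libraries of that genotype, so that input and genotype cannot be told apart in these lengths. H3K4me3 libraries held 26 to 26.9 M tags when labelled Control and 24.4 to 27.8 M when labelled cKO. Over all 15408 regions of at least 1000 bp the mean covered length was 2416 to 2492 bp in libraries labelled Control and 1969 to 2207 bp in those labelled cKO.

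Set side by side, Lrrtm1, Lrrtm2 and Lrrtm4 had a region called shorter for H3K4me3 and RNA called lower in at least 1 material. H3K4me3 came from sorted neuronal nuclei, and in neuron RNA Lrrtm1 alone was called. Lrrtm2 (-0.45, SE 0.17) and Lrrtm4 (-0.06, SE 0.16) were called in whole CA and not in neuron RNA. Nrxn3, Nlgn1 and Nlgn3 had a region called shorter and no RNA call, and the RNA difference of Nlgn3 was above 0 in both materials. Nrxn2, Nlgn2 and Lrrtm3 had neither, with the Lrrtm3 region called at the offset of 1000 bp. H3K4me3 and RNA come from different libraries, and this is a description of 9 genes with no share over all genes beside it.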

How the data were processed

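RNA was counted in 18 libraries and histone marks were profiled in 30 libraries. The authors deposited whole-number read counts per Ensembl gene ID, made from TruSeq v2 libraries per the labels; the aligner and counter of the RNA reads are not given in the sources used here. The authors called peaks in each ChIP library against an input of the same genotype with MACS 2.1.0.20140616 or, for the H3K4me3 files, MACS 2.1.1.20160309, at a q-value limit of 0.1 and with broad calling for H3K4me1, per the file headers. The deposited fold enrichment is the ratio of a peak to its local background, and the deposited −log10 q-value was used for an alternative peak limit, per the file headers. Build mm10 (GRCm38) is named in the submitters' processing notes.

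From these files, CPM of all counted reads were computed, and counts were tested with edgeR 4.0.16 (TMM factors, filterByExpr, quasi-likelihood test) in R 4.3.3. Peaks were merged and covered bp per region were tested with limma 3.58.1 on log2(covered bp + 100). P-values were adjusted by Benjamini-Hochberg over all genes or regions. The 9 genes were named in every library, along with Setd1b, the catenin genes around 3 of them, listed pathway genes that were called (at most 6 per list and comparison), and the gene most like each. The 9 genes, the lists and the tests were chosen with earlier results of these data known. The rule assigning regions to genes and the 3 other marks' lengths inside the H3K4me3 regions were set after seeing the data, because 3 genes had no start-site entry. Permuting libraries within genotype was also added after seeing the data. Tests were checked on simulated data. Alternatives were other scalings (RLE factors, library size alone), filters, DESeq2 1.42.0, adjusted p under 0.1, a minimum −log10 q of 5, an offset of 1000 bp, a replicate block, lanes, and leaving out each library. No 2 libraries held identical counts.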

Additional observations from a re-analysis of the deposited data

Results flagged for a closer look

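Of 94 groups of 4 to 10 libraries, 8 held a library far from the others by Dixon's ratio of gap to range at 95%, and chance alone gives about 1 in 20 such groups. In whole CA RNA, Nrxn2 stood at 227.25 CPM in Control replicate 1, against 168.57 CPM in the next library. Nrxn3 stood at 264.33 CPM in Control replicate 4, against 290.75 CPM in the next. Of the H3K4me3 lengths, Nrxn3 region 1 was covered by 4268 bp in cKO replicate 1. H3K4me1 covered 3152 bp of Nrxn3 region 2 in Control replicate 4 and 3442 bp in the other libraries labelled Control. H3K27ac covered 8347 bp of Nrxn2 region 2 in cKO replicate 1 and 8478 bp, the whole region, in the others of its group. H3K27ac covered 4502 bp of the Nlgn3 region in cKO replicate 2. H3K9ac covered 7889 bp of Nrxn2 region 2 in Control replicate 3 and 2360 bp of Nrxn3 region 2 in Control replicate 2.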

How the results depend on the processing

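In neuron RNA 1 of the 9 genes was called, 0 to 2 with a library left out and 0 with a replicate block; over all genes 539 were called, 840 by DESeq2, 930 at adjusted p under 0.1, 327 with the replicate block and 207 to 482 with a library left out. In whole CA 3 of the 9 were called, 1 (Lrrtm2) in replicates 1 to 3 alone and 1 (Lrrtm2) in replicates 4 to 6 alone, and 640 genes over all, 207 and 224 in those lanes. The replicate block added Nrxn3 there (-0.20, adjusted p = 0.0485), and Lrrtm4 lost its call with library sizes alone (0.0557) and with no filter (0.0861). The interaction held 28 genes over all, 18 to 32 with a library left out. Between materials 6 of the 9 and 14098 genes were called, 0 and 7793 with a log2 fold change of at least 1. H3K4me3 calls numbered 7, and 6 to 8 under all alternatives, with Nlgn3 lost under the replicate block (adjusted p = 0.101). H3K4me1 calls numbered 4, 2 to 4 with a library left out and 0 with the replicate block, where Lrrtm1 and Lrrtm2 had adjusted p of 0.171 and 0.0848. The H3K9ac call of Lrrtm1 became 3 calls with an offset of 1000 bp, 0 with the replicate block and 0 with any library left out. H3K27ac gave 0 calls under all alternatives run.

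Signs turned for small differences. With a library left out, neuron RNA differences ranged from -0.15 to 0.021 for Nrxn2, -0.087 to 0.16 for Nlgn1, -0.20 to 0.050 for Lrrtm3 and -0.24 to 0.082 for Lrrtm4. Whole CA Nlgn2 ranged from -0.047 to 0.0090 and was 0.031 in replicates 4 to 6, and Nrxn2 was -0.016 in replicates 1 to 3. The Lrrtm3 interaction ranged from -0.088 to 0.15. Between materials Nlgn2 ranged from -0.0020 to 0.16, and Lrrtm3 was 0.054 with library sizes alone. H3K27ac ranged from -0.047 to 0.23 at Lrrtm1, -0.15 to 0.18 at Lrrtm2 and -0.12 to 0.022 at Lrrtm3. The cause was not tested. Of the other values of single genes and regions, 844 kept direction and call, 63 lost a call and 12 gained one.

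The replicate numbers did not pair the libraries: deviations of same-numbered libraries correlated at -0.06 to 0.29 in neuron RNA, -0.06 to 0.20 in whole CA and -0.03 to 0.05 for H3K4me3. With 3 against 3 neuron libraries, Lrrtm1 and Lrrtm2 each changed call with 1 library, and Lrrtm4, at 198 to 321 reads per Control library in whole CA, was the least deeply counted of the 9 there.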
